A study of Mus musculus with 15 samples.

Results

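The genes described here are 9 transcription factors that specify amacrine cells, the inhibitory interneurons of the inner retina: Foxn4, Ptf1a, Prdm13, Tfap2a, Tfap2b, Tfap2c, Barhl2, Lhx9 and Ebf3. They were taken by gene symbol from the authors' deposited tables, in which all 9 were listed in each of the 3 comparisons, with 33 transcripts in all among the 16098 gene symbols of the series. All 9 had 0.5 FPKM or more (fragment counts scaled to transcript length and to library size) in either group of each comparison, the minimum used for calling a gene measured. The samples were whole retinas of the CD-1 strain taken at postnatal day 2 and sequenced in bulk, 15 in all and 5 to a group. WT retinas carried the floxed Neurog2 allele on both chromosomes (Neurog2CKO/CKO) and no Cre. HET retinas carried Chx10Cre with 1 floxed allele and an unmodified one (Chx10Cre;Neurog2CKO/+), and MUT retinas carried Chx10Cre with both alleles floxed (Chx10Cre;Neurog2CKO/CKO). Cre thus differed between WT and the other groups as well as the Neurog2 dose, and was shared by HET and MUT. Chx10Cre acts in retinal progenitors, and cells in which this Cre was not active would keep an intact Neurog2.

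In the mouse retina, amacrine cells are specified in steps. Foxn4, a forkhead factor of progenitors, acts upstream of Ptf1a, a basic helix-loop-helix factor of cells that are leaving the cell cycle and are about to become amacrine or horizontal cells. Prdm13, a zinc finger protein, acts downstream of Ptf1a, and the AP-2 proteins Tfap2a and Tfap2b mark and promote the same lineages; Barhl2, Lhx9 and Ebf3 then act in the choice among amacrine subtypes, and some of them also serve retinal ganglion cells. Neurog2, the targeted gene, is a proneural factor of progenitors. Ptf1a works in a complex with an E protein and Rbpj, which binds an E-box beside a TTTCCCA-type element.

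Because members of the group are known to act on each other's genes, the windows around their start sites are shown for Ptf1a and for Prdm13 and Tfap2a, the members in which TTTCCCA, the Rbpj element of the Ptf1a complex, was found, together with Foxn4, which stands upstream and had none of the searched elements. Each window runs from 250 bases before to 50 after the start site (RefSeq, GRCm38.p6), 5′ to 3′ on the gene's strand, with the matched elements in capitals.
Foxn4, chr5:114273712-114274011, minus strand: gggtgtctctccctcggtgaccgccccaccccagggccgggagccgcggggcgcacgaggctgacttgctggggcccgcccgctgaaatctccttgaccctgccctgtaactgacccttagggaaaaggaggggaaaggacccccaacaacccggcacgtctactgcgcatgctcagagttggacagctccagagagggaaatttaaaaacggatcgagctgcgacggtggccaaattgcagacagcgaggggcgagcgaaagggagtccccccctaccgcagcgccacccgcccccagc
Ptf1a, chr2:19445413-19445712, plus strand: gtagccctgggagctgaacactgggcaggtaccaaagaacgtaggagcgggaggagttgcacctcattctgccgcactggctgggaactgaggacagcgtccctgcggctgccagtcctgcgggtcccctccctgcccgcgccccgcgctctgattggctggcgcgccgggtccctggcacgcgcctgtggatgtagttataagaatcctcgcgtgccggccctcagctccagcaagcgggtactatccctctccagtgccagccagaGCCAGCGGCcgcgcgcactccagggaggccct
Prdm13, chr4:21685914-21686213, minus strand: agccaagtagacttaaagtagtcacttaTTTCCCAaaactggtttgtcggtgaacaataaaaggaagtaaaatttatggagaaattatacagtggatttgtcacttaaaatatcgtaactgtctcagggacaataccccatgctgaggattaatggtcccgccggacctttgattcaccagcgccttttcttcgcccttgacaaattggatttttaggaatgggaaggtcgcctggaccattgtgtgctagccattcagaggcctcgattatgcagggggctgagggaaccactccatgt
Tfap2a, chr13:40734871-40735170, minus strand: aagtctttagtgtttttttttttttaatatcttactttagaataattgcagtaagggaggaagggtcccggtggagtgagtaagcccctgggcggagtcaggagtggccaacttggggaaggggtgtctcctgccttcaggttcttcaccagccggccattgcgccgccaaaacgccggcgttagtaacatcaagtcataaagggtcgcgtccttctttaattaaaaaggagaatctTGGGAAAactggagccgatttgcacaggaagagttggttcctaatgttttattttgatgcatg

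RefSeq start windows were found for 8 of the 9 members, 9 windows in all; Tfap2c was not matched. The elements searched on both strands were the E-boxes CAGATG and CAGCTG, the Rbpj element TTTCCCA and the AP-2 element GCCNNNGGC. Neither of these 2 E-box forms occurred in any of the 9 windows, against 17.2% and 16.3% of all 32851 windows. Other E-box forms were not searched, and the Barhl2 window holds some, CACCTG among them. The windows are thus not shown to lack E-boxes. TTTCCCA was found in 2 windows, that of Prdm13, 222 bases before the start site, and the first of 2 windows of Tfap2a, 13 bases before it; 8.06% of all windows hold it. GCCNNNGGC was found in 2 windows, that of Ptf1a, 18 bases after the start site, and that of Ebf3, 223 bases before it, against 16.6% of all windows. The windows also differed in base composition, from 44.3% G and C in Prdm13 to 77.0% in Ebf3, with a median of 52.7% over all windows. No match overlapped another. Such matches describe the letters of these windows and were not tied to any measurement of binding.

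The deposited values were 1 FPKM value per transcript and group, combined by the authors over the samples of the group, which leaves no sample-to-sample spread to show and no depth per library. Each group stood in 2 tables, which were normalized separately; the summed level of a member in the same group differed between its 2 tables by at most 1.37%, except for Lhx9, at up to 3.71%, where a transcript was listed in only 2 of the tables. The error given is the standard error implied by the deposited fold change and test statistic, given as ± after a log2 fold change (second group over first). By this error few transcripts of any gene stood out. A normal p from the test statistic was under 0.05 for 0.163% of all transcripts from WT to HET, 0.24% from WT to MUT and 0.148% from HET to MUT. A change within 1 implied error is therefore not evidence of no change. Calls are those at an authors' q-value under 0.05. Neurog2 itself was at 59.5 FPKM in WT against 10.6 FPKM in MUT, and at 42.5 FPKM in HET where MUT was at 10.5 FPKM, which is the order of the labels.

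In WT retinas, Tfap2b had the highest summed level of the 9 and Lhx9 the lowest, a span from 64.1 to 7.68 FPKM. Prdm13 stood at 36.5 FPKM, Foxn4 at 31.5 FPKM, Tfap2a at 23.9 FPKM and Barhl2 at 17.9 FPKM. Ebf3, Ptf1a and Tfap2c followed at 13.0, 12.8 and 12.2 FPKM, which are neighbours that cannot be ordered without a spread between samples. Among the 14844 genes measured in that table, Tfap2b stood at percentile 89.4 of WT levels and Lhx9 at percentile 39.2. The order changed little between groups. In HET, Ptf1a (14.7 FPKM) and Tfap2c (13.2 FPKM) stood above Ebf3 (11.0 FPKM), and in MUT Foxn4 (31.9 FPKM) stood above Prdm13 (31.1 FPKM).

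**Figure D1:**
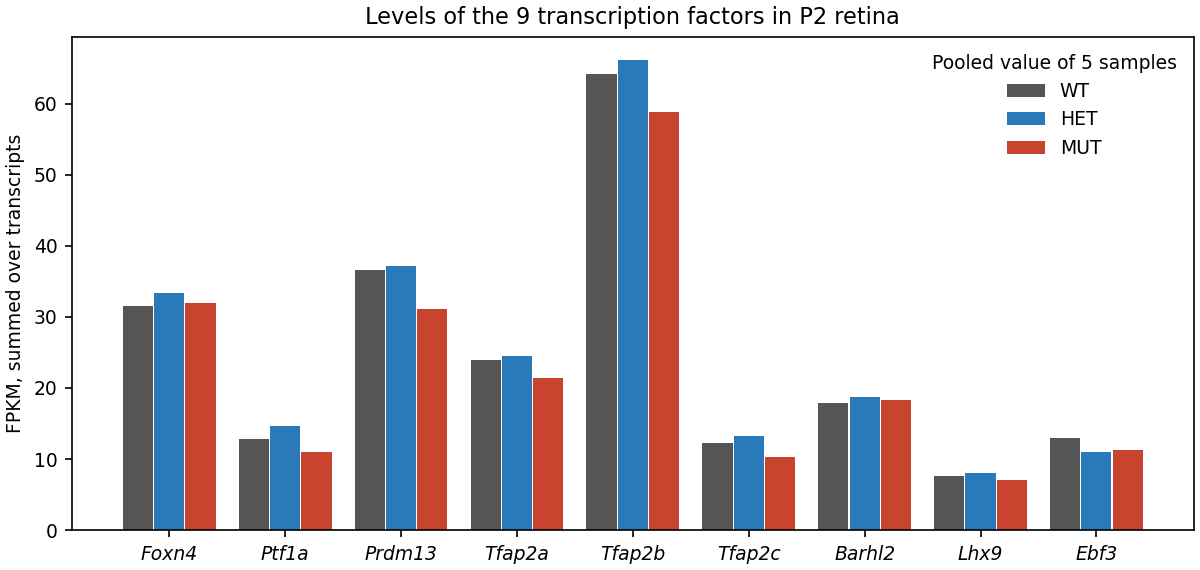
Summed FPKM of each factor (vertical axis) in WT, HET and MUT retinas; each bar is the authors' 1 pooled value of 5 samples, so no error bar can be drawn, and WT comes from the table with MUT and the others from that of HET with MUT, since a group's values differ somewhat between the tables. HET bars are the tallest for 8 factors, the exception being Ebf3, and MUT bars are the shortest for Ptf1a, Prdm13, Tfap2a, Tfap2b, Tfap2c and Lhx9, where that of Lhx9 depends on which transcripts are listed.

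HET and MUT differ in the second Neurog2 copy and both carry Cre. Levels of sex-linked genes differed as well (given with the markers of other cells), and sex makeup cannot be told apart from Neurog2 dose here. In this pair Ptf1a, Tfap2c and Prdm13 had the ratios farthest from 0. Ptf1a was at 14.7 FPKM in HET against 10.9 FPKM in MUT, which is 25.5% less in MUT. Tfap2c was at 13.2 and 10.4 FPKM, 21.5% less, and Prdm13 at 37.2 and 31.1 FPKM, 16.2% less. Foxn4 and Barhl2 differed by 4.18% and 1.72%. Of the 9 members, 8 had a gene-level log2 ratio of (FPKM + 0.1) below 0, with a median of -0.17, where 47.9% of all 14776 measured genes had a ratio below 0 and their median was 0.00. No member transcript was called in the authors' deposited table (0% of all 43959 transcripts were called there), and the smallest q-value of a member was 0.9996. At an unadjusted p under 0.05, 3 of 31 member transcripts were lower in MUT and none was higher, against 0.814% of all transcripts in either direction and 0.471% lower. With a normal p from the deposited test statistic, none of the 31 was under 0.05, where 0.148% of all transcripts were. The authors' p-values stop at 5e-05. Counted over the listed transcripts only, 44 at that value were needed for any to pass the threshold and 27 reached it. The authors' own correction may have covered more transcripts than are listed.

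Foxn4 (ENSMUSG00000042002.10, chromosome 5, 114254164 to 114273807, minus strand, mm10), the progenitor factor that stands first in the sequence, had a leading transcript at 30.7 FPKM in HET against 29.4 FPKM in MUT. Cuffdiff, in the authors' deposited table, gave it a log2 change of -0.07 ± 0.22 (p = 0.506), smaller than its error. From WT to HET, the same transcript was at 28.9 FPKM in WT against 30.7 FPKM in HET, with 0.08 ± 0.28 as the log2 change in the authors' deposited table. From WT to MUT it was at 29.1 and 29.4 FPKM, with 0.02 ± 0.28 as the log2 change in the authors' deposited table (p = 0.897). The 3 groups thus lay within the error of this transcript in all 3 comparisons. The leading transcript carried most of the gene's FPKM, and the other listed transcripts of Foxn4 were each at 2.12 FPKM or less.

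Ptf1a (ENSMUSG00000026735.2, chromosome 2, 19445663 to 19447501, plus strand, mm10), which commits precursors to the amacrine and horizontal fates, was listed with 1 transcript. In the authors' deposited table its log2 fold change from HET to MUT was -0.43 ± 0.31 (p = 0.002, q = 0.9996), and 0.182% of all transcripts had a p at or below that. From WT to HET it was at 12.7 and 14.6 FPKM, with 0.20 ± 0.39 as the log2 change in the authors' deposited table (p = 0.241). From WT to MUT it was at 12.8 and 10.9 FPKM, with -0.22 ± 0.40 as the log2 change in the authors' deposited table (p = 0.204). HET was therefore the highest of the 3 groups and MUT the lowest, and neither differed from WT by more than the implied error. The comparisons of HET with WT and with MUT share the HET samples, so the signs of these ratios are not independent. Cuffdiff's p of 0.002 does not follow from a normal approximation, which gives 0.165 for the same test statistic. The antisense gene Ptf1aos overlaps the start of Ptf1a on the minus strand, and the authors' locus spans both; the sources used here do not say if strand was kept, so their reads cannot be told apart.

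Prdm13 (ENSMUSG00000040478.13, chromosome 4, 21677480 to 21685963, minus strand, mm10) was listed with 6 transcripts. In the authors' deposited table, its leading protein-coding transcript was at 21.3 FPKM in HET against 18.2 FPKM in MUT, a log2 fold change of -0.23 ± 0.28 (p = 0.0685). From WT to MUT the same transcript was at 21.7 and 18.2 FPKM, with -0.25 ± 0.33 as the log2 change in the authors' deposited table (p = 0.0909), the smallest p of any member transcript in that comparison. From WT to HET it was at 21.6 and 21.3 FPKM, -0.02 ± 0.34 in the authors' deposited table. MUT was the lowest group for this transcript, by less than 1 implied error. A processed transcript without an annotated coding sequence made up the next largest part, at 9.61 FPKM in HET against 7.25 FPKM in MUT (authors' deposited table).

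The AP-2 factors bind DNA as dimers, and the 3 members are paralogs. Tfap2b (ENSMUSG00000025927.12, chromosome 1, 19208914 to 19238576, plus strand, mm10) had a leading transcript at 36.2 FPKM in HET against 30.5 FPKM in MUT, with -0.25 ± 0.28 as the log2 change in the authors' deposited table (p = 0.0493, and 0.379 by the normal approximation). In the comparisons with WT, it was at 33.5 FPKM in WT beside 36.1 FPKM in HET, and at 33.6 FPKM in WT beside 30.5 FPKM in MUT. The log2 changes in the authors' deposited tables were 0.11 ± 0.34 and -0.14 ± 0.34. All of these ratios are smaller than their errors. Tfap2a (ENSMUSG00000021359.14, chromosome 13, 40715302 to 40738376, minus strand, GENCODE M21) had 2 transcripts, both with ratios below 0 from HET to MUT, the leading one at 16.5 and 15.0 FPKM with -0.14 ± 0.30 in the authors' deposited table (p = 0.293). The antisense gene Gm26688 lies within the Tfap2a locus and was at 1.39 FPKM in MUT.

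Tfap2c (ENSMUSG00000028640.10, chromosome 2, 172549593 to 172558622, plus strand, mm10), the AP-2 gamma protein, had a leading transcript at 8.53 FPKM in HET against 6.27 FPKM in MUT. The authors' deposited table gives it a log2 change of -0.44 ± 0.35 (p = 0.0049, q = 0.9996), where the normal approximation gives a p of 0.210. From WT to HET the transcript was at 7.09 and 8.51 FPKM, with 0.26 ± 0.44 as the log2 change in the authors' deposited table (p = 0.173), the smallest p of any member in that comparison. From WT to MUT it was at 7.13 and 6.28 FPKM, -0.18 ± 0.44 in the authors' deposited table (p = 0.351). As for Ptf1a, HET was the highest group and MUT the lowest, with WT between them. Summed over the 3 AP-2 members, the level was 104 FPKM in HET against 90.6 FPKM in MUT, and 100 FPKM in WT beside 90.7 FPKM in MUT. The other paralogs were Tfap2e, at 8.53 and 6.95 FPKM in HET and MUT (log2 fold change -0.29 ± 0.32, p = 0.0397 in the authors' deposited table), and Tfap2d, at 9.40 and 10.3 FPKM. Thus 4 of the 5 AP-2 genes had a ratio below 0 from HET to MUT, where 47.9% of all measured genes had.

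**Figure D2:**
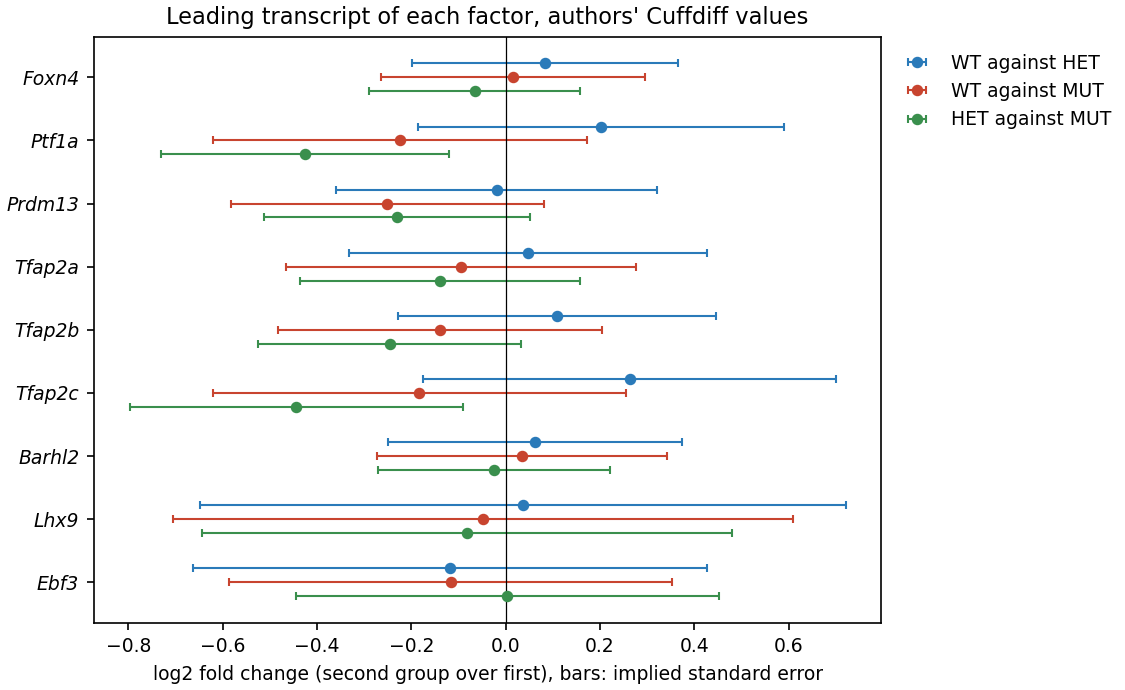
The authors' log2 fold change (horizontal axis) of the transcript with the highest FPKM of each factor in the 3 comparisons, with bars of 1 implied standard error. From HET to MUT the bars of Ptf1a and Tfap2c stay below 0 and those of the other 7 factors cross it; all bars of both comparisons with WT cross 0.

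Barhl2, Lhx9 and Ebf3, homeodomain, LIM homeodomain and helix-loop-helix factors of amacrine subtypes, had other or unsettled orders of the groups. Barhl2 (ENSMUSG00000034384.11, chromosome 5, 106452523 to 106458166, minus strand, mm10) was listed with 1 transcript, at 18.7 FPKM in HET against 18.3 FPKM in MUT, with -0.02 ± 0.25 as the log2 change in the authors' deposited table (p = 0.815). Against WT its log2 fold changes were 0.06 ± 0.31 in HET and 0.03 ± 0.31 in MUT in the authors' deposited tables. Its level was thus within 4.38% in any pair of groups.

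Lhx9 (ENSMUSG00000019230.13, chromosome 1, 138825186 to 138848577, minus strand, mm10) was the lowest of the 9, with a leading transcript at 4.57 FPKM in HET against 4.32 FPKM in MUT, and -0.08 ± 0.56 as its log2 change in the authors' deposited table. Its gene-level log2 ratio from WT to MUT, -0.06 over all listed transcripts, was 0.02 over those listed in all 3 tables, so its direction is not given. Ebf3 (ENSMUSG00000010476.12, chromosome 7, 137193673 to 137314445, minus strand, mm10) had its highest summed level in WT, at 12.9 FPKM beside 11.0 FPKM in HET, and at 13.0 FPKM beside 11.3 FPKM in MUT. The gene-level log2 ratios were -0.23 and -0.19, and -0.12 and -0.11 by the leading transcript alone, and the 4 transcripts had a p of at least 0.193 in both comparisons with WT. From HET to MUT the 2 main transcripts of Ebf3 had log2 fold changes of 0.00 ± 0.45 and 0.09 ± 0.44 in the authors' deposited table. Ebf3 was the 1 member with a ratio below 0 from WT to HET and the 1 with a ratio above 0 from HET to MUT.

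WT and MUT differ in both Neurog2 copies and in Cre, and levels of sex-linked genes differed as well. Of the 9 members, 7 had a gene-level ratio below 0 (6 over transcripts listed in all 3 tables, where Lhx9 turns), with a median of -0.15, where 46.2% of the measured genes had a ratio below 0. Tfap2c, Prdm13 and Ptf1a had the lowest log2 ratios, at -0.23, -0.23 and -0.22, which are percentiles 6.37, 6.55 and 6.74 of all genes. Barhl2 and Foxn4 had ratios of 0.03 each. No member transcript of 33 was called in the authors' deposited table, where 0.115% of all transcripts were, and none had an unadjusted p under 0.05, where 0.851% of all transcripts had. The smallest q-value of a member was 0.9995, and all 9 leading transcripts lay within 1 implied error of 0. The share of all transcripts within 1 implied error was not taken, so this count does not set the members apart.

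WT and HET differ in 1 Neurog2 copy and in Cre, and levels of sex-linked genes differed as well. Of the 9 members, 8 had a gene-level ratio above 0 and 1 below, with a median of 0.06 (2 below 0 by leading transcripts alone, the added one being Prdm13), where 46.8% of all genes had a ratio below 0. Ptf1a had the largest ratio, 0.20 (percentile 89.7 of all genes), followed by Tfap2c at 0.12 and Lhx9 at 0.11. This order depends on which transcripts are summed: by leading transcripts alone Tfap2c was at 0.26, above Ptf1a, and Lhx9 at 0.04, and over transcripts listed in all 3 tables Lhx9 was at 0.19. No member transcript of 32 was called in the authors' deposited table, where 0% of all transcripts were. The p-values stop at 5e-05 here too. By the same count over listed transcripts, 45 at that value were needed and 21 reached it. The absence of calls is thus no result about the members. None of the 32 had an unadjusted p under 0.05, where 0.515% of all had. All 9 leading transcripts were again within 1 implied error of 0, with the same limit.

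**Figure D3:**
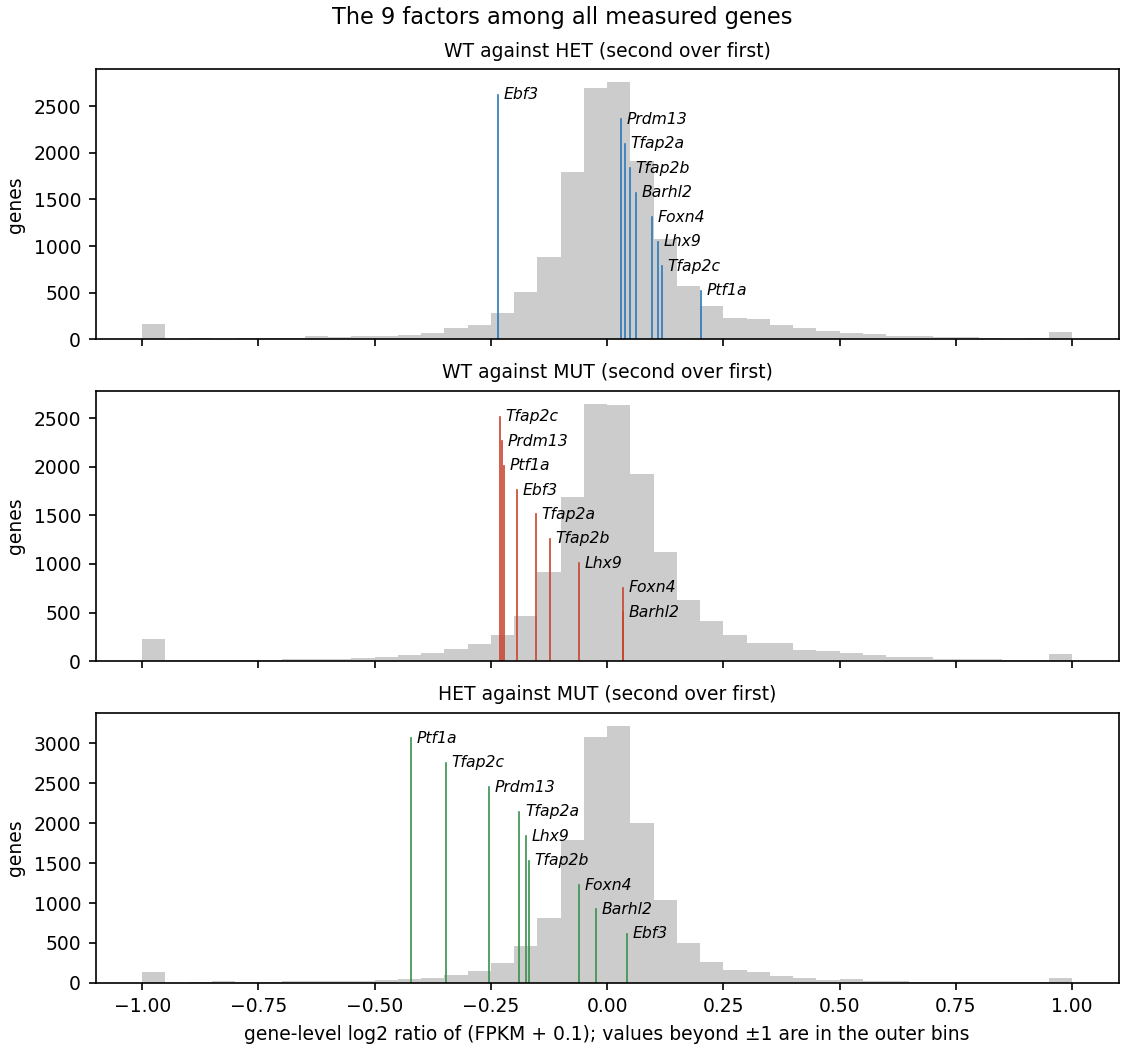
Number of measured genes (vertical axis) by gene-level log2 ratio of (FPKM + 0.1) in steps of 0.05 (grey), with each factor's ratio as a coloured line whose height has no meaning. From HET to MUT, Ptf1a at -0.42 and Tfap2c at -0.35 lie at percentiles 2.29 and 2.94 of all genes; from WT to HET, 8 of the 9 lie above 0.

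The transcripts of a member were split by Cufflinks. The implied errors of the other transcripts overlapped those of the leading ones but reached far higher. From HET to MUT the leading transcripts had implied errors from 0.22 to 0.56 on the log2 scale. Apart from the leading ones, 22 member transcripts were listed from HET to MUT, with implied errors from 0.44 to 5.51 on the log2 scale and 0.1356 as the smallest p. Within Tfap2b, 1 retained-intron transcript was at 3.76 FPKM in HET against 1.13 FPKM in MUT while another was at 0.467 and 3.31 FPKM, with log2 fold changes of -1.74 ± 4.59 and 2.83 ± 5.51 in the authors' deposited table (p = 0.546 and 0.402). Both errors exceed the changes, so no change of Tfap2b isoforms was detectable.

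**Figure D4:**
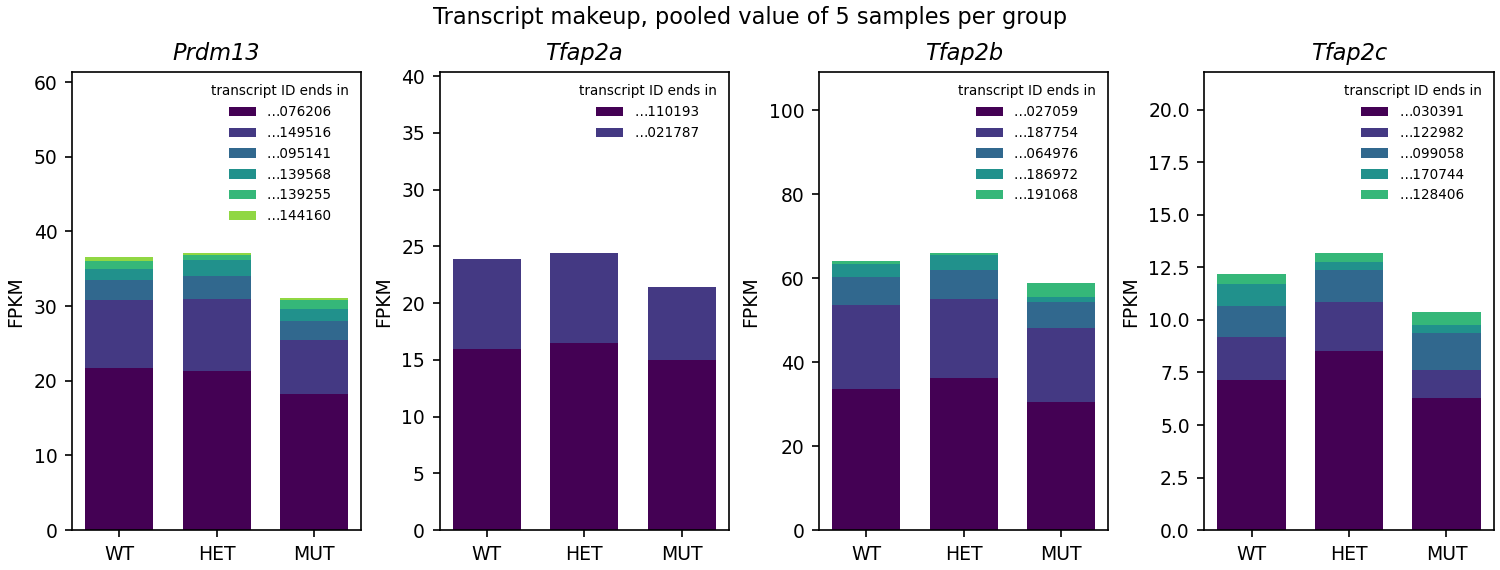
FPKM of each listed transcript (stacked, vertical axis) of Prdm13, Tfap2a, Tfap2b and Tfap2c in WT, HET and MUT, each segment a pooled value of 5 samples. The leading transcript, at the base of each column, is shorter in MUT than in HET for all 4 genes, such as 8.53 and 6.27 FPKM for Tfap2c.

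Genes that act with or above these factors were compared by lists. Of the partners of Ptf1a, Rbpj was at 21.0 FPKM in both HET and MUT, and the E protein genes Tcf12 and Tcf4 had log2 ratios of 0.14 and 0.05; none of the 4 measured partners had a transcript with an unadjusted p under 0.05 in any comparison. Upstream of Foxn4 and Ptf1a, 5 of 6 genes, including Pax6, a homeodomain factor that amacrine cells also keep, had none either, and Neurog2 was the 1 that did. Pax6 was at 384 FPKM in WT against 391 FPKM in MUT, and Meis2, a TALE homeodomain factor, at 106 and 117 FPKM. Of the paralogs of the members, 8 of 10 were measured in each comparison, and their median log2 ratio from HET to MUT was 0.06, beside -0.17 for the members. The largest paralog ratios from WT to MUT were those of Foxn3 (0.24) and Ebf1 (-0.19). A minor Ebf1 transcript had an unadjusted p of 0.0491 from WT to HET, at -1.90 ± 2.27 in the authors' deposited table.

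Other amacrine transcription factors had a median of 0.03 from HET to MUT (-0.0020 with no minimum level), with 7 of 16 measured genes below 0. Of all measured genes, 47.9% were below 0 in that comparison. Neurod2, a differentiation factor of the same bHLH class as Neurog2 that acts in amacrine cells, was called lower in MUT than in WT in the authors' deposited table, at -0.84 ± 0.42 (q = 0.0388), and it was the only called gene on that list. The call is lost when Cuffdiff's deposited p is replaced by the normal p from its test statistic (0.0470, and 0.999993 after correction over all transcripts). It is also lost at a q-value threshold of 0.01, but 0.0388 was the smallest q-value of any transcript there, that of Neurog2 included. The 0.01 threshold thus says nothing about Neurod2 itself. Nhlh2, a related factor, was at 29.2 FPKM in HET against 22.3 FPKM in MUT, and the authors' deposited table gives -0.39 ± 0.23 as its log2 change (p = 0.0002, q = 0.205). Neurod1 and Neurod6 also had a transcript with an unadjusted p under 0.05 and a ratio below 0 from WT to MUT. Among genes of amacrine function, 10 of 14 measured had a ratio below 0 from HET to MUT, where 47.9% of all measured genes had. Their median was -0.09, and none had an unadjusted p under 0.05, where 0.814% of all transcripts had. Gad1, which makes GABA, was at 21.5 and 18.8 FPKM, Slc32a1, the vesicular inhibitory transporter, at 10.5 and 9.29 FPKM, and Calb2, calretinin, at 123 and 129 FPKM. Of markers of mature subtypes, Slc18a3, the vesicular acetylcholine transporter, was at 0.573 FPKM in WT beside 0.141 FPKM in MUT (p = 0.140 in the authors' deposited table) and at 0.571 FPKM in WT beside 0.162 FPKM in HET (p = 0.216 there), levels near the minimum. Chat, choline acetyltransferase, was at 0.608 FPKM in WT beside 0.446 FPKM in MUT, and at 0.520 FPKM in HET. Th was under 0.5 FPKM in all tables, and Nos1 and Slc17a8 had no row in these tables.

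**Figure D5:**
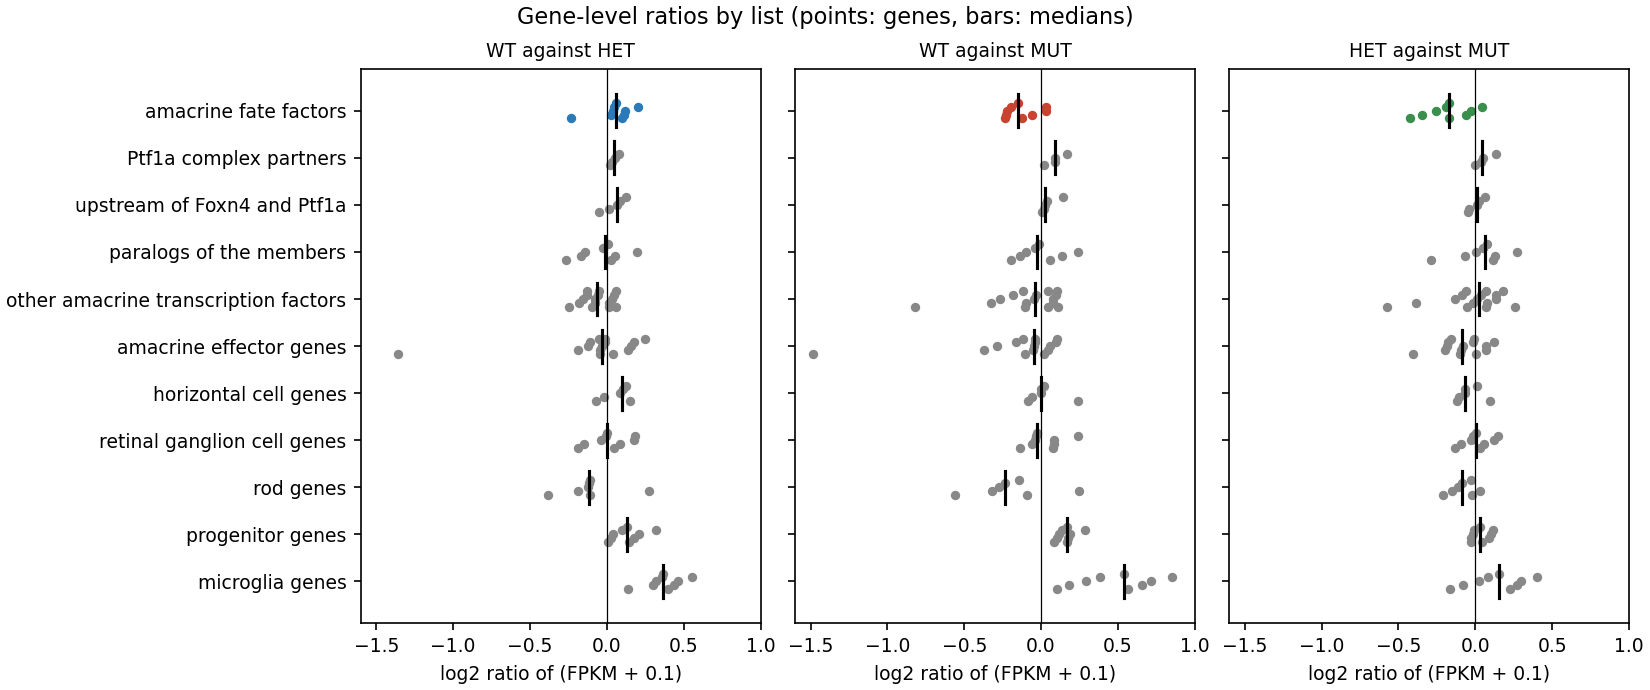
Gene-level log2 ratio of (FPKM + 0.1) (horizontal axis) of each measured gene, as points, in the 9 factors and in 10 other lists, with bars at the medians; Neurog2 and sex-linked genes are left out of the drawing. The factors have a median of -0.17 from HET to MUT, and microglia genes one of 0.54 from WT to MUT.

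Markers of other cells were compared in the same tables. None of the rod, progenitor, horizontal cell, ganglion cell or microglia genes listed here had a called transcript. Only WT to MUT had any calls, at 0.115% of all transcripts. From WT to HET, WT to MUT and HET to MUT, 46.8%, 46.2% and 47.9% of all measured genes had a ratio below 0. An unadjusted p under 0.05 was found for 0.515%, 0.851% and 0.814% of all transcripts, in that order. In bulk tissue, fewer cells of a type and less RNA per cell cannot be told apart. Progenitor genes had ratios above 0 for 9 of 9 members from WT to HET and from WT to MUT, with summed levels of 1621 and 1772 FPKM in the first and of 1629 and 1788 FPKM in the second, and for 5 of 9 from HET to MUT. Rod genes had ratios below 0 for 6 of 7 members in each comparison, with summed levels of 777 FPKM in WT against 688 FPKM in MUT; Sag, Pde6b, Nr2e3 and Gnat1 had an unadjusted p under 0.05 and a ratio below 0 in the same comparison. Fgf15, a progenitor signal, had an unadjusted p under 0.05 and a ratio above 0 in both comparisons with WT. Horizontal cell genes, which share Foxn4, Ptf1a and Tfap2b with amacrine cells, summed to 26.4 FPKM in HET against 26.2 FPKM in MUT. Prox1 made up most of both sums, at 17.7 and 17.8 FPKM. By gene, 4 of the 6 had a ratio below 0 and 2 above, with a median of -0.07. Retinal ganglion cell genes summed to 477 and 480 FPKM. Microglia genes had ratios above 0 for 9 of 9 measured members in both comparisons with WT, with sums of 72.2 FPKM in WT against 105 FPKM in MUT, and for 7 of 9 from HET to MUT. From WT to MUT, C1qa, C1qb, C1qc, Ctss and Tyrobp had an unadjusted p under 0.05, and Ptprc had no row. Of the sex-linked genes, Kdm5d, from the Y chromosome, was at 5.41 FPKM in HET against 0.00117 FPKM in MUT, and Xist, from the inactive X chromosome, at 63.3 and 135 FPKM. Eif2s3y, also from the Y chromosome, was at 0.755 and 0.0142 FPKM over the transcripts listed in that comparison. In the comparison of WT with MUT, Kdm5d was at 3.73 and 0.00117 FPKM and Xist at 98.8 and 135 FPKM. From WT to HET, Kdm5d was at 4.95 and 7.10 FPKM, Xist at 98.3 and 63.2 FPKM, and Eif2s3y at 13.8 and 23.8 FPKM. These sums depend on which transcripts are listed. For the sex-linked genes, 19 transcripts were listed from WT to HET and 6 in each comparison with MUT. A group's level of a Y gene can therefore not be compared between these comparisons. Ddx3y and Uty, also Y genes, were at 6.14 and 1.43 FPKM in WT beside 9.18 and 2.41 FPKM in HET. They had no row in either comparison with MUT. WT and HET thus held both Xist and Y gene RNA, while listed Y genes were at 0.0142 FPKM or less in MUT. In these pooled values, sex makeup and genotype cannot be told apart. The part of these differences in the values of the 9 factors was not tested.

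By the distance between pairs of gene-level log2 ratios (WT to HET and WT to MUT), among 9754 other protein-coding genes with 5 FPKM or more in WT, the genes most like Ptf1a were Clrn1 at a distance of 0.04, C1ql2 at 0.04 and Ppp2r3d at 0.06. Within 0.05 of Ptf1a lay 2 genes, and within 0.05 of Foxn4 lay 965, of which Gprasp2, Rplp1 and Tmx1 were the nearest. These distances rest on 3 pooled groups and both ratios share the WT samples. The implied errors of the Ptf1a changes, 0.39 and 0.40, far exceed the distances, so its nearest genes are not settled. Foxn4 had ratios of 0.10 and 0.03, near 0 where genes are most numerous, so the 2 counts do not show that the pattern of Ptf1a is rare.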

How the data were processed

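Total RNA of whole retinas was purified with a Zymo kit and sequenced after library preparation by standard Illumina protocols at a core facility, per the labels' protocols; poly(A) selection and strand are not given in the sources used here. Per the submitters' processing notes, which name no versions, the tools were Bowtie2, Cufflinks and Cuffdiff and the build was mm10. Per the file headers, each of the 3 deposited Cuffdiff tables lists transcripts with an FPKM value for either group, their log2 ratio, the test statistic as a score, and the p-value with its q-value. No values per sample were used here, so depth is unknown and limits the wording. Samples were grouped by title, and nothing in the labels says that they came from separate animals, so the spread behind the p-values may be technical. The titles also carry a code per sample whose first number, 7, 21 or 23, recurs in all 3 groups; the labels do not say what it marks, and pooled values allow no block on it.

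From these, FPKM was summed per gene symbol, and log2 ratios were taken with a pseudocount of 0.1 FPKM, which understates changes of low genes. These ratios have no test; the authors' Cuffdiff test, per transcript and corrected over all their transcripts, is the test cited. The implied error is the absolute ratio of fold change to test statistic. The deposited log2 fold change departed from the ratio of the FPKM values by at most 5.12e-05. No row held an FPKM of 0. Gene positions came from GENCODE M21 (same assembly as mm10), whose gene identifiers matched 99.7% of rows; the recomputed correction was tested on simulated data. Python 3.11.15, pandas 2.3.3, numpy 2.4.6 and scipy 1.17.1 were used.

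The members and lists were chosen with earlier results of these data known. Marker genes that are not reported here were left out of the lists and their sums. Named genes were all members, Neurog2, list genes with an unadjusted p under 0.05 or among the 2 largest ratios of a list from WT to MUT, and the 3 genes nearest to Ptf1a and to Foxn4. Calb2, Gad1, Slc32a1, Rbpj, Pax6, Tfap2d, Th, Nos1, Slc17a8, Eif2s3y, Ddx3y and Uty were named after their values were seen. Alternatives covered thresholds, correction, pseudocount, minimum level, centring and choice of transcripts.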

Additional observations from a re-analysis of the deposited data

How the results depend on the processing

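Leaving out single samples was not possible, since the deposited tables hold 1 pooled value per group. No paired analysis was possible because the columns are pooled by group and carry no replicate numbers. The count of called member transcripts was 0 in each comparison with the q-value threshold at 0.01 or 0.10, with the correction recomputed over transcripts of 1 FPKM or more, and with a normal p from the test statistic. The 0.01 threshold could call nothing, since the smallest q-values of any transcript were 0.0769 (WT to HET), 0.0388 (WT to MUT) and 0.0762 (HET to MUT). With an unadjusted p under 0.05 the count of member transcripts was 3 from HET to MUT and 0 in both comparisons with WT. Over all transcripts, calls from WT to HET were 0 at a q-value under 0.05, 21 under 0.10 and 29 with the normal p. From HET to MUT they were 0, 27 and 26, and from WT to MUT they went from 51 to 0 at a q-value under 0.01. The number of members with a ratio below 0 from WT to HET was 1, and 2 with leading transcripts only, where Prdm13 was at -0.02 in place of 0.03. The only other sign that turned among the members was that of Lhx9 from WT to MUT, from -0.06 to 0.02 over transcripts listed in all 3 tables. Of the 27 gene-level ratios of members, 10 moved by over 1.5 times or turned with leading transcripts only and 2 over transcripts listed in all 3 tables, and 0 did so with either other pseudocount or with centring. The largest shift was 0.14, on the log2 scale. Of 36 list medians, 7 turned sign under at least 1 alternative, the largest of which was 0.04 in size before the change.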

Other observations

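Genes of the neighbouring fates gave small ratios that the account of the 9 factors did not use. Of the 6 horizontal cell genes, Lhx1, a LIM homeodomain factor of that fate, had the largest log2 ratio from WT to MUT, 0.24, and the other named one, Onecut2, was at -0.08. Of the 9 retinal ganglion cell genes, Pou4f3, a POU factor, had a log2 ratio of 0.24 and Eomes, a T-box factor, one of -0.13 in the same comparison. None of the transcripts of either list had an unadjusted p under 0.05 in any of the 3 comparisons, where 0.515% to 0.851% of all transcripts had. None was called, and only WT to MUT had any calls, at 0.115% of all transcripts.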
